A study of Mus musculus with 15 samples.

Results

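Polycomb repressive complex 2 (PRC2) was followed through its 10 core and accessory subunits in mouse hematopoietic stem cells (HSCs) sorted by their content of a histone label. The subunits were chosen by gene symbol from the known composition of the complex, and they make up 10 of the 31298 symbols in the table. They are Ezh1, Ezh2, Eed, Suz12, Rbbp4 and Rbbp7 in the core and Mtf2, Phf19, Jarid2 and Aebp2 among the accessory proteins. All 10 passed the filter on low values and were tested among 27994 genes.

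PRC2 methylates a lysine in the tail of histone H3, a mark of silenced genes. Its core joins a methyltransferase, Ezh2 or the paralog Ezh1, to Eed, Suz12 and a histone-binding protein, Rbbp4 or Rbbp7. One form of the complex adds a Polycomb-like protein (Mtf2, Phf19 or Phf1) and the other adds Jarid2 and Aebp2, which helps to bring it to its sites. Ezh2 is known as the enzyme of dividing cells, while Ezh1 persists in resting ones and is known for its part in keeping adult mouse HSCs.

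RNA was sequenced from bone marrow HSCs of the LSK gate (no lineage markers, with Sca1 and c-Kit) that carried CD150 and lacked CD48 and Flk2. All mice were of the strain hCD34-tTA x TetO-H2BGFP, in which a transactivator under human CD34 regulatory sequence drives histone H2B fused to green fluorescent protein, and all drank doxycycline at 1 mg/ml from an age of 2 to 4 months until harvest, which turns the transgene off so that divisions dilute the label. The HSCs were divided into GFP4, GFP3, GFP2 and GFP1, and Total was the undivided sort. Each of the 5 groups had 3 libraries, numbered I, II and III, from mice of 5, 5.5 and 6.5 months after 12, 14 and 16 weeks of doxycycline. The labels do not state which bin holds most label; a higher number is taken to mean more label. They also do not say whether a library came from 1 mouse or a pool, or whether groups of one number shared mice. A p-value therefore speaks only of the spread among libraries. The libraries of a group came from mice of different ages and times on doxycycline, so this spread is not technical alone. Values are deposited log2 expression values with 1 distribution for all libraries, so depth and total RNA per cell are unknown. Whether they are per length is not given, so levels are compared between libraries of a gene and not between genes. In these bulk samples fewer cells of a type and less RNA per cell cannot be told apart.

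Some libraries stood apart before any PRC2 gene was considered. The Y-linked gene Ddx3y was at 1.59 to 3.92 in 5 libraries and at 10.93 to 11.93 in the other 10, and the X-linked Kdm6a was at 11.76 to 12.26 and at 10.51 to 11.39 in the same libraries. The low libraries were GFP4 replicate II and replicate I of GFP3, GFP2, GFP1 and Total, so each group held 1, but the replicate numbers of GFP4 did not follow those of the other groups. The share of immunoglobulin genes in the summed linear values was 4.92% to 5.28% in GFP1 and 4.35% to 5.50% in Total. It was 0.0094% to 0.0759% in the other 9 libraries. Of 9 plasma cell markers 9 were higher in GFP1 than in GFP4, where the list means were 10.90 to 11.09 and 6.51 to 7.60; they were 10.30 to 11.04 in Total and 6.11 to 7.74 in the 2 other bins. None of those markers was at the lowest value of the file in GFP1. All 5 megakaryocyte markers and 5 of 6 B cell markers were also higher, together with 2 of 6 for T and NK cells; of 8 markers that the sort excludes 3 were higher and 1 lower, and 0 of the neutrophil, macrophage and late erythroid markers were called. The HSC markers were present in every group; of the 10, limma called 7 lower in GFP1 and 1, Cd34, higher. Libraries of a group correlated with r between 0.857 and 0.977 over 10337 genes. The part of these differences in the PRC2 results was not tested, and GFP2 against GFP4 is given below as a comparison in which both groups had the low immunoglobulin share.

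The 2 methyltransferase genes moved in opposite directions with label. Between GFP4 and GFP1 they moved more than any other of the 10 subunits. Phf1, a partner outside the 10 that differed by more (−1.55), is given below. Ezh1 (chromosome 11, 101191115 to 101226463, minus strand, GRCm38) had log2 values of 12.20, 12.51 and 12.44 in GFP4, of 12.05, 12.06 and 12.05 in GFP3 and of 11.89, 11.70 and 11.84 in GFP2, in the order of replicates I to III. Its values were 11.29, 11.13 and 11.04 in GFP1 and 11.75, 11.67 and 11.46 in Total. The 4 bins did not overlap in Ezh1 and came in the order of their numbers, with GFP1 lowest. Ezh1 averaged 11.15 ± 0.13 in GFP1 and 12.38 ± 0.16 in GFP4 (SD, n = 3 each). It was lower in GFP1 by a log2 difference of −1.23 (SE 0.10, limma adjusted p = 7.61e-08), a fold change of 0.427.

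Ezh2 (chromosome 6, 47530139 to 47595341, minus strand) ran the other way. It was at 10.57, 10.87 and 10.52 in GFP4, at 11.53, 10.94 and 11.11 in GFP3 and at 11.77, 11.39 and 11.42 in GFP2. In GFP1 it was at 12.12, 12.00 and 11.94, and in Total at 11.93, 11.80 and 11.63. Every GFP1 library was above every library of the other 3 bins, every GFP4 library was below them, and GFP3 and GFP2 overlapped through GFP3 replicate I. Ezh2 averaged 12.02 ± 0.09 in GFP1 and 10.65 ± 0.19 in GFP4 (SD, n = 3 each), a log2 difference of 1.37 (SE 0.14, limma adjusted p = 8.93e-07) and a fold change of 2.58.

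**Figure D1:**
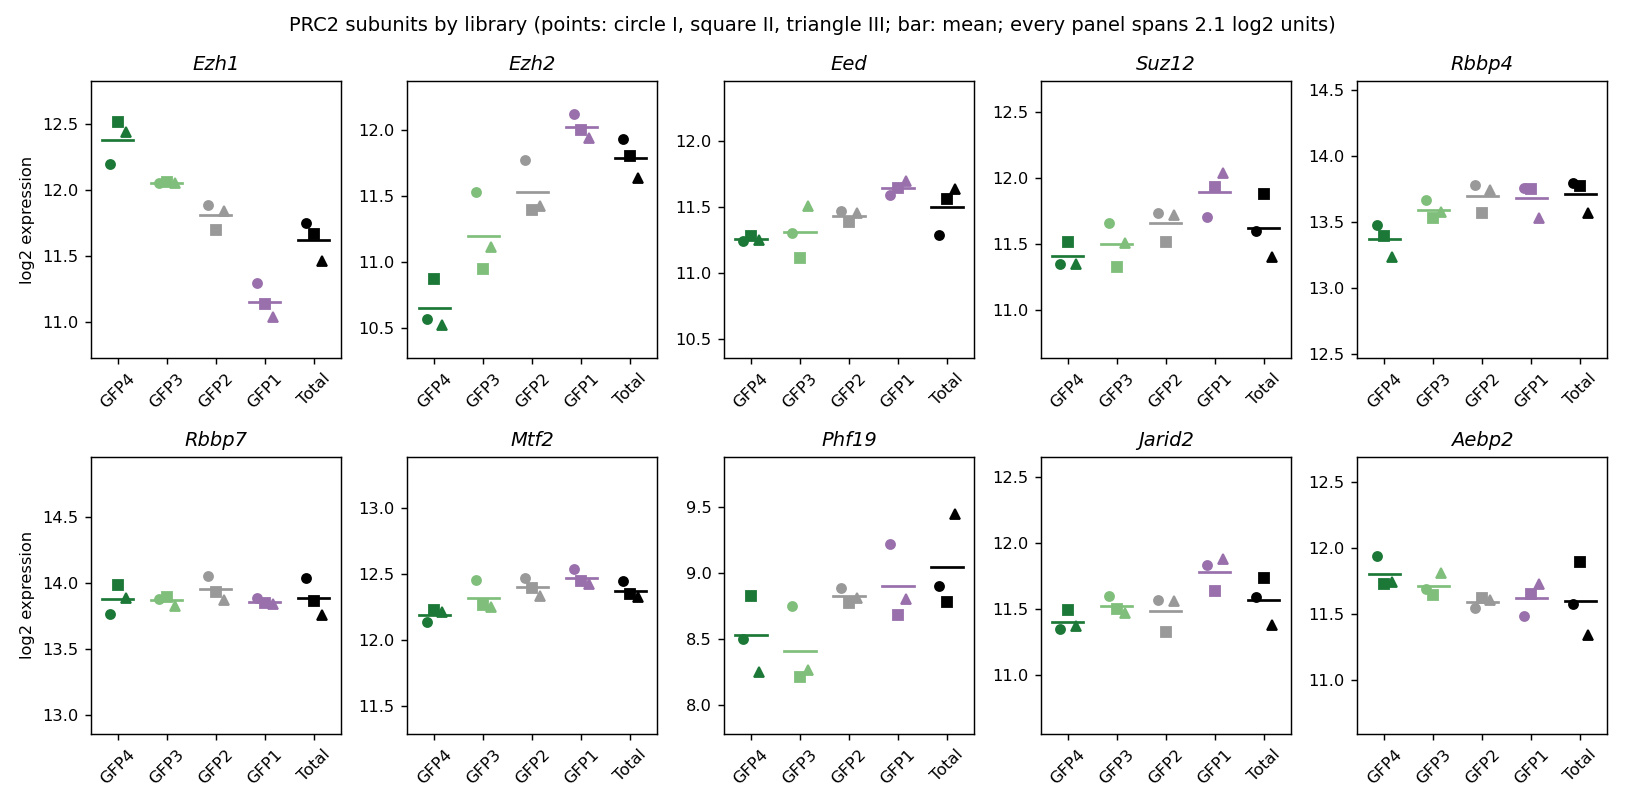
Deposited log2 expression of the 10 PRC2 subunits in each library, with 1 panel a gene and the sorted populations from GFP4 to GFP1 and Total on the x axis; points are libraries, bars are group means, and each panel spans the same log2 range on its own axis. Ezh1 is lowest in GFP1 (mean 11.15) and highest in GFP4 (mean 12.38), Ezh2 is highest in GFP1 (mean 12.02) and lowest in GFP4 (mean 10.65), and Rbbp7 stays between 13.76 and 14.05 in all 15 libraries.

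Ezh2 is known as a target of E2F factors, which drive genes of replication, so the promoters of the 10 subunits are shown where they hold an E2F-type motif. The letters searched on both strands were TTTCCCGC, TTTGGCGC, TTTCGCGC and TTTGCCGC. The windows (GRCm38.p6) ran from 250 bases before to 50 after each start given by RefSeq. Such a start can differ from the gene bounds printed here, which are from GENCODE. The Ezh2 window (47594981 to 47595280) and both Jarid2 windows (from 44730524 and from 44731021) lay inside the printed bounds, so the printed starts of these genes were not searched. A match was found in 3 of the 14 windows of the 10 members and in 2.26% of all 32851 windows. The matching stretches of Ezh2 (chr6:47595009-47595038, minus strand), Suz12 (chr11:79992861-79992920, plus strand) and Phf19 (chr2:34914151-34914210, minus strand) are written 5′ to 3′ on the strand of the gene, with the motif in capitals.
Ezh2: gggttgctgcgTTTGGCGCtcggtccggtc
Suz12: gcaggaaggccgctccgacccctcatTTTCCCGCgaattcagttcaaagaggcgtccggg
Phf19: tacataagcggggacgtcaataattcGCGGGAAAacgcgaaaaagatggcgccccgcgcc
Counted from the RefSeq start, the motif began at base 4 after it in Ezh2, at −219 in Suz12 and at −208 in Phf19. In Phf19 it lies on the opposite strand. The windows of the 7 other subunits, Ezh1 among them, did not hold these letters. The shorter cell cycle motif TTTGAA, found in 17.9% of all windows, was in those of Eed and Suz12 and in 1 window each of Mtf2 and Aebp2. A match is a stretch of letters and not a measured binding site.

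The balance of the methyltransferases was taken in each library as log2 Ezh1 minus log2 Ezh2, which needs no scaling between libraries. It was 1.63, 1.64 and 1.92 in GFP4, 0.52, 1.12 and 0.94 in GFP3 and 0.11, 0.31 and 0.42 in GFP2. It was −0.82, −0.86 and −0.90 in GFP1 and −0.18, −0.13 and −0.17 in Total. No pair of the 5 groups overlapped, and the bins came in the order of their numbers. The mean balance was 1.73 ± 0.16 in GFP4, 0.86 ± 0.31 in GFP3, 0.28 ± 0.15 in GFP2, −0.86 ± 0.04 in GFP1 and −0.16 ± 0.03 in Total (SD, n = 3 each). GFP1 minus GFP4 was −2.59, a 6.04-fold shift in the ratio of the 2 transcripts. The step of GFP3 minus GFP4 was −0.87, that of GFP2 minus GFP3 −0.58 and that of GFP1 minus GFP2 −1.14. Total lay between GFP2 and GFP1. The value of 0 has no meaning here, since the 2 genes are not on a common scale, and no test is given because the balance combines genes whose differences were already known.

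**Figure D2:**
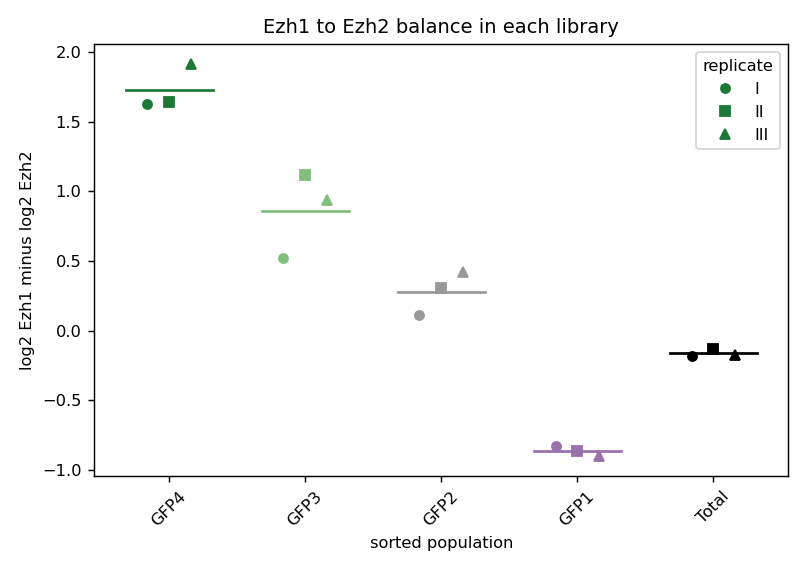
The Ezh1 to Ezh2 balance (log2 Ezh1 minus log2 Ezh2, y axis) in each of the 15 libraries, by sorted population; point shapes are replicates I, II and III and lines are group means. The balance is lower at each bin going from GFP4 (1.63 to 1.92) towards GFP1 (−0.90 to −0.82), and the 3 Total libraries lie between GFP2 and GFP1.

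GFP1 against GFP4 joined the ends of the bin numbering. There limma called 7 of the 10 subunits at an adjusted p under 0.05. These were 6 higher in GFP1 (Ezh2, Eed, Suz12, Rbbp4, Mtf2 and Jarid2) and Ezh1 lower. Over all genes tested 19.5% were called in that comparison, 9.27% higher and 10.3% lower. All 10 subunits belong to the 10337 genes that averaged 10 ppm or more of all linear values in a library, and there 47.9% were called, 22.8% higher and 25.1% lower. The median log2 difference of the subunits was 0.34, against −0.07 over all genes tested. In 8 of the 10 the libraries of GFP1 and GFP4 did not overlap, 6 above and 2 below (Ezh1 and Aebp2). Over all genes tested 32.8% did not overlap, 15.1% above and 17.6% below. That share was not counted among the genes at 10 ppm or more, to which all 10 subunits belong. As a linear trend over the 4 bins, expressed as log2 change for each bin going down in number, the same 7 subunits were called. Of all genes tested 20.1% were called in the trend (9.6% rising, 10.5% falling), and of the genes at 10 ppm or more 49% (23.7% rising, 25.3% falling). Ezh1 fell by 0.39 per step (SE 0.033, limma adjusted p = 5.88e-08) and Ezh2 rose by 0.44 (SE 0.045, limma adjusted p = 5.99e-07), while the 5 other called subunits rose by 0.09 to 0.16 per step. In the trend, Jarid2 lost its call without GFP4 replicate I or III or GFP1 replicate I or III (limma adjusted p between 0.0782 and 0.114). Mtf2 lost it without replicate I of GFP4 or of GFP1 (limma adjusted p between 0.0665 and 0.0695). Rbbp4 lost it without GFP4 replicate III or GFP1 replicate I or II (limma adjusted p between 0.0569 and 0.0785). Jarid2, Mtf2 and Rbbp4 also lost it without intensity trend and robust moderation (limma adjusted p between 0.0745 and 0.0904). Without the libraries low in Ddx3y they lost it again, together with Eed (limma adjusted p between 0.0501 and 0.128).

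Eed, which binds the methylated histone tail and stimulates the enzyme (chromosome 7, 89954654 to 89980983, minus strand), was higher in GFP1. Its values were 11.59, 11.64 and 11.70 in GFP1 and 11.25, 11.29 and 11.25 in GFP4. The groups did not overlap, and the difference was 0.38 (SE 0.11, limma adjusted p = 0.0152). In between, Eed was 11.30, 11.11 and 11.51 in GFP3 and 11.47, 11.39 and 11.45 in GFP2. The spread within GFP3 covered that of GFP2 and GFP4. The call was lost without GFP1 replicate III (0.36, limma adjusted p = 0.0635) and without the 5 libraries low in Ddx3y (0.42, limma adjusted p = 0.0582). It was also lost without intensity trend and robust moderation (0.38, limma adjusted p = 0.0626).

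Suz12, the scaffold on which the core assembles (chromosome 11, 79993106 to 80034123, plus strand), also rose. It was at 11.70, 11.93 and 12.04 in GFP1 and at 11.35, 11.52 and 11.35 in GFP4, a difference of 0.49 (SE 0.13, limma adjusted p = 0.00791). GFP3 gave 11.66, 11.33 and 11.50 and GFP2 gave 11.74, 11.51 and 11.72. GFP2 replicates I and III were thus above GFP1 replicate I, although GFP1 and GFP4 did not overlap. Without GFP1 replicate III the call was lost (0.41, limma adjusted p = 0.0541). Suz12, like Ezh2, had the E2F-type letters in its window, and Eed did not. Phf19 had them and was not called, while Rbbp4, Mtf2 and Jarid2 were called higher without them. The means of Eed and of Suz12 went up at each step from GFP4 to GFP1.

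The histone-binding subunits, close relatives that also serve in other chromatin complexes, differed in their calls, though the contrast between them was not itself tested. Rbbp4 (chromosome 4, 129307100 to 129335370, minus strand) was at 13.76, 13.74 and 13.53 in GFP1 and at 13.47, 13.39 and 13.24 in GFP4, a difference of 0.31 (SE 0.091, limma adjusted p = 0.0195). Its means were 13.59 ± 0.07 in GFP3 and 13.69 ± 0.11 in GFP2, the second of them next to the GFP1 mean of 13.68 ± 0.13. The Rbbp4 call was lost without GFP4 replicate III, GFP1 replicate I or GFP1 replicate II (0.25 to 0.28, limma adjusted p between 0.0841 and 0.119) and without the libraries low in Ddx3y (0.28, limma adjusted p = 0.154). Leaving out intensity trend and robust moderation also lost it (0.31, limma adjusted p = 0.112). Rbbp7 (chromosome X, 162760402 to 162779092, plus strand) was at 13.89, 13.85 and 13.84 in GFP1 and at 13.76, 13.98 and 13.89 in GFP4. The GFP1 values lay inside the GFP4 range, and the difference was −0.02 (SE 0.081, limma adjusted p = 0.931). Its bin means covered 0.09 log2 units in all.

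Of the accessory proteins, Mtf2, a Polycomb-like protein that binds unmethylated CpG-rich DNA (chromosome 5, 108065674 to 108109004, plus strand), rose in a narrow range. It was at 12.54, 12.45 and 12.43 in GFP1 and at 12.14, 12.23 and 12.21 in GFP4, a difference of 0.28 (SE 0.083, limma adjusted p = 0.0222). The libraries did not overlap, and the means of GFP3 (12.32 ± 0.12) and GFP2 (12.40 ± 0.07) lay in order between them. The call was lost without GFP4 replicate I, GFP4 replicate III or GFP1 replicate I (0.24 to 0.29, limma adjusted p between 0.0513 and 0.0937) and without the libraries low in Ddx3y (0.26, limma adjusted p = 0.125). It was lost as well without intensity trend and robust moderation (0.28, limma adjusted p = 0.0882). Phf19, also a Polycomb-like protein (chromosome 2, 34893757 to 34914026, minus strand), had the largest standard error of the 10. It was at 9.22, 8.68 and 8.81 in GFP1 and at 8.50, 8.83 and 8.25 in GFP4, which overlap, and the difference of 0.37 (SE 0.21) missed the threshold (limma adjusted p = 0.288).

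Jarid2, the catalytically inactive Jumonji protein (chromosome 13, 44729474 to 44921643, plus strand), and Aebp2, a zinc finger protein (chromosome 6, 140622663 to 140678472, plus strand), belong to the same form of the complex. Jarid2 was at 11.83, 11.64 and 11.88 in GFP1 and at 11.35, 11.50 and 11.37 in GFP4, a difference of 0.38 (SE 0.11, limma adjusted p = 0.0160). GFP3 averaged 11.52 ± 0.07 and GFP2 11.49 ± 0.14, both below every GFP1 library. The Jarid2 call was lost without GFP4 replicate I, GFP4 replicate III, GFP1 replicate I or GFP1 replicate III (0.33 to 0.36, limma adjusted p between 0.0564 and 0.0846) and without the libraries low in Ddx3y (0.40, limma adjusted p = 0.0947). It was also lost without intensity trend and robust moderation (0.38, limma adjusted p = 0.0673). Aebp2 was at 11.48, 11.65 and 11.72 in GFP1 and at 11.94, 11.73 and 11.74 in GFP4. The groups did not overlap, but GFP1 replicate III and GFP4 replicate II lay close together, and the difference of −0.19 (SE 0.12) missed the threshold (limma adjusted p = 0.357).

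Taken one by one, the steps between neighbouring bins were small for most subunits. In GFP3 against GFP4 limma called 0 of the 10, and 0.0572% of all genes tested (0.0429% higher, 0.0143% lower). At an unadjusted p under 0.05 there were 3 subunits, Ezh2 (0.54, SE 0.14, limma adjusted p = 0.232), Ezh1 (−0.33, SE 0.10, limma adjusted p = 0.408) and Rbbp4 (0.22, SE 0.091, limma adjusted p = 0.717), where 5.86% of all genes were. With a term for low Ddx3y added to the model, Ezh2 was called higher in GFP3 (limma adjusted p = 0.00745). In GFP2 against GFP3 limma called 0 of the 10 and 0% of all genes. Ezh1 (−0.25, SE 0.10) and Ezh2 (0.33, SE 0.14) had an unadjusted p under 0.05, where 5.6% of all genes did.

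GFP1 against GFP2 had 2 of the 10 subunits called, where 7.17% of all genes tested were (3.06% higher, 4.1% lower). Of the genes at 10 ppm or more 20.8% were called, so the number of subunits was near that share. Ezh1 was lower by −0.65 (SE 0.10, limma adjusted p = 5.87e-04), and Ezh2 was higher by 0.49 (SE 0.14, limma adjusted p = 0.0422). The Ezh2 call was lost without GFP2 replicate II or III, without any 1 of the 3 GFP1 libraries, without GFP4 replicate I, GFP3 replicate III or Total replicate II, and without the filter on low values (0.42 to 0.53, limma adjusted p between 0.0518 and 0.180). Leaving out intensity trend and robust moderation lost it as well (0.49, limma adjusted p = 0.166). For the 8 other subunits the differences ran from −0.09 (Rbbp7) to 0.30 (Jarid2, SE 0.11, limma adjusted p = 0.114). The difference between the last step and the first, (GFP1 minus GFP2) minus (GFP3 minus GFP4), was called for 0 subunits and for 0.686% of all genes (0.347% higher, 0.339% lower). For Ezh1 it was −0.33 (SE 0.15, limma adjusted p = 0.511), the 1 subunit with an unadjusted p under 0.05, where 9.16% of all genes had one.

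GFP2 against GFP4 joined 2 bins with few immunoglobulin transcripts, and both methyltransferases differed there as well. Limma called 3 of the 10 subunits, where 4.35% of all genes tested (2.69% higher, 1.67% lower) and 15.5% of those at 10 ppm or more (9.26% higher, 6.21% lower) were called. In 6 of the 10 the libraries of GFP2 and GFP4 did not overlap, 4 above (Ezh2, Eed, Rbbp4 and Mtf2) and 2 below (Ezh1 and Aebp2). Over all genes tested 20% did not, 10.4% above and 9.66% below. Here too, the share among the genes at 10 ppm or more was not counted. Ezh1 averaged 11.81 ± 0.10 in GFP2 and 12.38 ± 0.16 in GFP4 (SD, n = 3 each), a difference of −0.57 (SE 0.10, limma adjusted p = 0.00266). Ezh2 averaged 11.53 ± 0.21 in GFP2 and 10.65 ± 0.19 in GFP4, a difference of 0.88 (SE 0.14, limma adjusted p = 0.00116). Rbbp4 was higher by 0.33 (SE 0.091, limma adjusted p = 0.0467), with a call so near the threshold that it was lost in 14 of 26 other settings, among them those without any 1 of the GFP4 or GFP3 libraries, without GFP2 replicate I or III, GFP1 replicate I or II or Total replicate II, and without the libraries low in Ddx3y (0.26 to 0.38, limma adjusted p between 0.0515 and 0.377). Suz12 (0.25, limma adjusted p = 0.385), Mtf2 (0.21, limma adjusted p = 0.224), Eed (0.18, limma adjusted p = 0.533) and Jarid2 (0.08, limma adjusted p = 0.855), which were called at the ends of the range, were not called here. GFP1 against GFP4 and GFP2 against GFP4 share the GFP4 libraries.

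**Figure D3:**
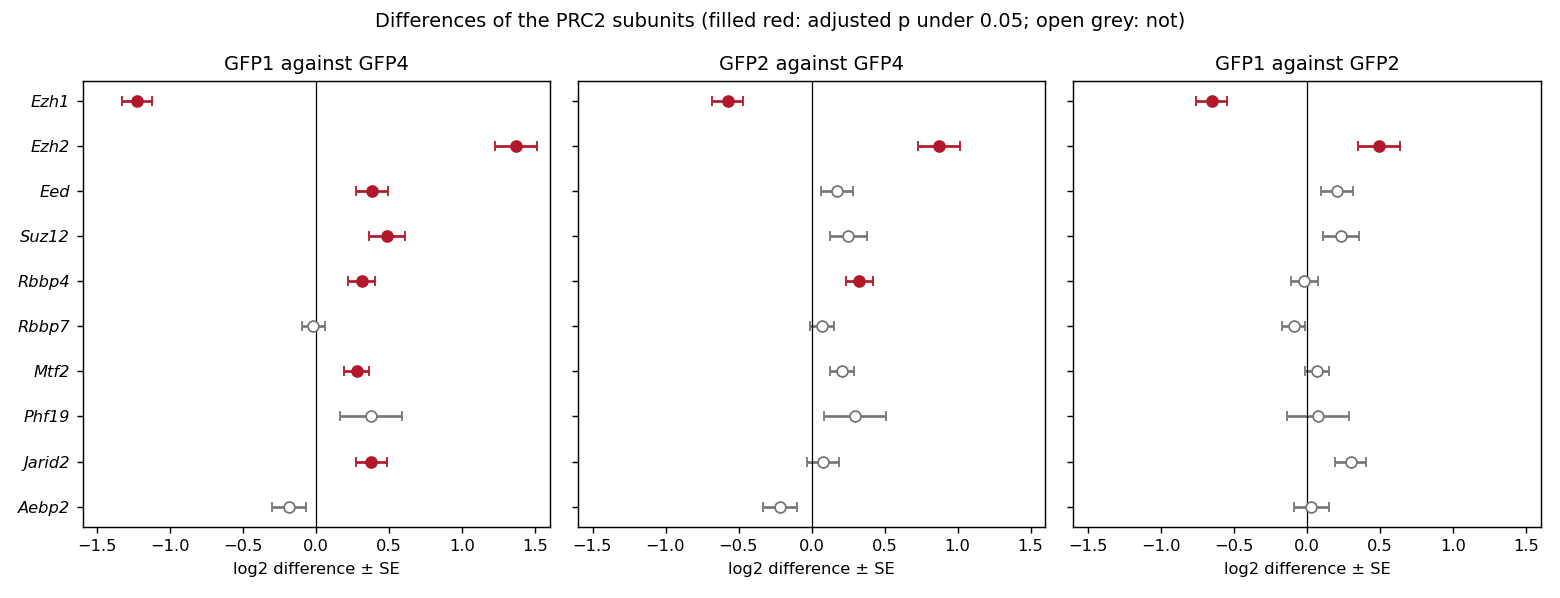
Log2 differences of the 10 subunits (x axis, points with limma standard errors) in GFP1 against GFP4, GFP2 against GFP4 and GFP1 against GFP2; filled red points passed an adjusted p of 0.05 over all genes tested. Ezh1 and Ezh2 lie farthest from 0 on opposite sides in all 3 panels, and the other 8 subunits stay within 0.49 of 0.

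Set against the undivided HSCs, the bins fell on both sides for the methyltransferases. In GFP4 against Total, limma called Ezh1 higher (0.76, SE 0.10, adjusted p = 8.46e-05), Ezh2 lower (−1.13, SE 0.14, adjusted p = 3.48e-05) and Rbbp4 lower (−0.34, SE 0.091, adjusted p = 0.0197), which is 3 of 10 where 10% of all genes were called (4.7% higher, 5.29% lower). Of the genes at 10 ppm or more 30.7% were called there, so 3 of 10 was near that share. The Rbbp4 call was lost without GFP4 replicate III, Total replicate I or Total replicate II (−0.31 to −0.28, limma adjusted p between 0.0682 and 0.117). It was also lost without the libraries low in Ddx3y (−0.31, limma adjusted p = 0.152). The same held with the compared groups alone (limma adjusted p = 0.0882) and without intensity trend and robust moderation (limma adjusted p = 0.130). In GFP3 against Total, 2.14% of all genes were called (0.672% higher, 1.47% lower), and 8.6% of those at 10 ppm or more. There Ezh1 was higher (0.43, SE 0.10, limma adjusted p = 0.0365) and Ezh2 lower (−0.59, SE 0.14, limma adjusted p = 0.0364). Both calls were lost without GFP3 replicate II, GFP3 replicate III or Total replicate II; that of Ezh1 was also lost without GFP3 replicate I, GFP1 replicate II or Total replicate III, and that of Ezh2 without Total replicate I. Across these the differences were 0.35 to 0.45 for Ezh1 (limma adjusted p between 0.0501 and 0.145) and −0.59 to −0.47 for Ezh2 (limma adjusted p between 0.0838 and 0.216). Without the libraries low in Ddx3y, Ezh1 was at 0.49 (limma adjusted p = 0.0783) and was not called.

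In GFP2 against Total limma called 0 of the 10 subunits and 0.329% of all genes (0.0107% higher, 0.318% lower), and 0 subunits had an unadjusted p under 0.05, where 6.72% of all genes did. In GFP1 against Total, 1.73% of all genes were called (0.318% higher, 1.41% lower), and 6.04% of those at 10 ppm or more. Of the subunits limma called Ezh1 alone there, lower by −0.47 (SE 0.10, adjusted p = 0.0234). That call was lost without GFP1 replicate II or III or Total replicate I or II (−0.46 to −0.41, limma adjusted p between 0.0751 and 0.149) and without the libraries low in Ddx3y (at −0.48). Ezh2 was 0.23 higher in GFP1 than in Total (SE 0.14, limma adjusted p = 0.584). The Total mean lay within the range of the 4 bin means for 8 of the 10 subunits, and the bin mean nearest to it was that of GFP2 for 6. The exceptions were Rbbp4, at 13.71 ± 0.13 in Total and 13.69 ± 0.11 in GFP2, its highest bin, and Phf19, at 9.04 ± 0.35 in Total and 8.90 ± 0.28 in GFP1.

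Other partners of the complex were looked up by symbol, and 3 of 5 were in the table. Phf1, the third Polycomb-like protein, was at 10.84, 11.01 and 10.78 in GFP4, at 10.42, 10.79 and 10.64 in GFP3 and at 10.09, 10.29 and 10.26 in GFP2. It was at 9.48, 9.39 and 9.09 in GFP1 and at 10.26, 10.33 and 10.27 in Total. Its GFP1 libraries were the lowest of all 15, and its difference in GFP1 against GFP4 was −1.55 (SE 0.13, limma adjusted p = 5.33e-08), opposite in sign to that of Mtf2. Phf1 was also lower in GFP2 than in GFP4 (−0.66, limma adjusted p = 0.00430), a call lost without the libraries low in Ddx3y (−0.53, limma adjusted p = 0.125). Of the ligand-dependent corepressors that join PRC2 with the Polycomb-like proteins, Lcor was −0.17 in GFP1 against GFP4 (SE 0.14, limma adjusted p = 0.490). Lcorl was higher by 0.39 (SE 0.13, limma adjusted p = 0.0424), a call lost in 8 of 26 other settings, among them without GFP4 replicate II or III, GFP3 replicate II, GFP2 replicate III or GFP1 replicate II or III (0.34 to 0.39, limma adjusted p between 0.0528 and 0.149) and without the libraries low in Ddx3y (0.40, limma adjusted p = 0.166). Phf1, Lcor and Lcorl thus gave 1 lower, 1 not called and 1 higher.

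The demethylases that remove the PRC2 mark were Kdm6a and Kdm6b. Kdm6b was at 7.99, 7.88 and 7.55 in GFP1 and at 8.81, 8.74 and 8.72 in GFP4, a difference of −0.95 (SE 0.18, limma adjusted p = 6.01e-04) between groups that did not overlap. Its means were 8.61 ± 0.15 in GFP3, 8.56 ± 0.14 in GFP2 and 8.64 ± 0.23 in Total, so GFP1 stood apart from the other 4 groups. Kdm6a is X-linked and followed the split in Ddx3y; its difference in GFP1 against GFP4 was −0.27 (SE 0.45, limma adjusted p = 0.796), and 0.03 without GFP4 replicate II.

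A list of 16 genes known as PRC2 targets in mouse cells was also followed. Of these 14 passed the filter and 1 reached a mean of 10 ppm. In GFP1 against GFP4, 0 of the 14 were higher and 2 were lower, where 9.27% of all genes tested were higher and 10.3% lower, so the number of lower targets was near that share. Their median was −0.32, against −0.07 over all genes tested. The 2 called are given as single genes. Hmga2, a chromatin protein of fetal HSCs, was at 7.30, 7.61 and 7.62 in GFP1 and at 8.42, 8.36 and 8.54 in GFP4, a difference of −0.93 (SE 0.18, limma adjusted p = 8.25e-04). Lin28b, an RNA-binding protein also known from fetal HSCs, was at 1.72, 4.31 and 4.35 in GFP1 and at 6.22, 5.46 and 5.32 in GFP4. Its difference of −2.20 (SE 0.66, limma adjusted p = 0.0226) rested on GFP1 replicate I, without which it was −1.33 (limma adjusted p = 0.157), and it was −1.92 without GFP4 replicate I (limma adjusted p = 0.0994). Without the libraries low in Ddx3y it was −1.44 (limma adjusted p = 0.147). The call of Lin28b was also lost without intensity trend and robust moderation (−2.20, limma adjusted p = 0.0534).

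Genes of the cell cycle moved in the same direction as Ezh2. Of 25 S phase genes 25 were higher in GFP1 than in GFP4, with a median difference of 1.38, among them Uhrf1, which maintains DNA methylation after replication (1.86, SE 0.12, limma adjusted p = 3.73e-09), and Chaf1a, a chromatin assembly factor (1.83, SE 0.13, limma adjusted p = 1.12e-08). Of 25 G2 and M phase genes 25 were higher, with a median of 2.28, among them Cdca8 of the chromosomal passenger complex (2.34, SE 0.17, limma adjusted p = 2.48e-08) and the spindle checkpoint kinase Ttk (2.28, SE 0.20, limma adjusted p = 1.79e-07). In GFP2 against GFP4, 24 of the S phase genes were higher with a median of 0.83, and 25 of the G2 and M phase genes with a median of 1.51. The part of the cell cycle in the Ezh2 difference was not tested.

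Ezh2 was also set beside the mean of each list in the same library. Ezh2 minus the S phase mean was −0.32 ± 0.10 in GFP4, −0.14 ± 0.09 in GFP3, −0.26 ± 0.06 in GFP2, −0.35 ± 0.07 in GFP1 and −0.23 ± 0.11 in Total (SD, n = 3 each). These means differed less between groups than those of Ezh2 itself. Ezh2 minus the G2 and M phase mean was 0.67 ± 0.06 in GFP4, 0.28 ± 0.21 in GFP3, 0.04 ± 0.19 in GFP2, −0.26 ± 0.15 in GFP1 and 0.06 ± 0.25 in Total. In GFP1 against GFP4, Eed (0.38) and Suz12 (0.49) differed by less than the S phase median of 1.38.

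**Figure D4:**
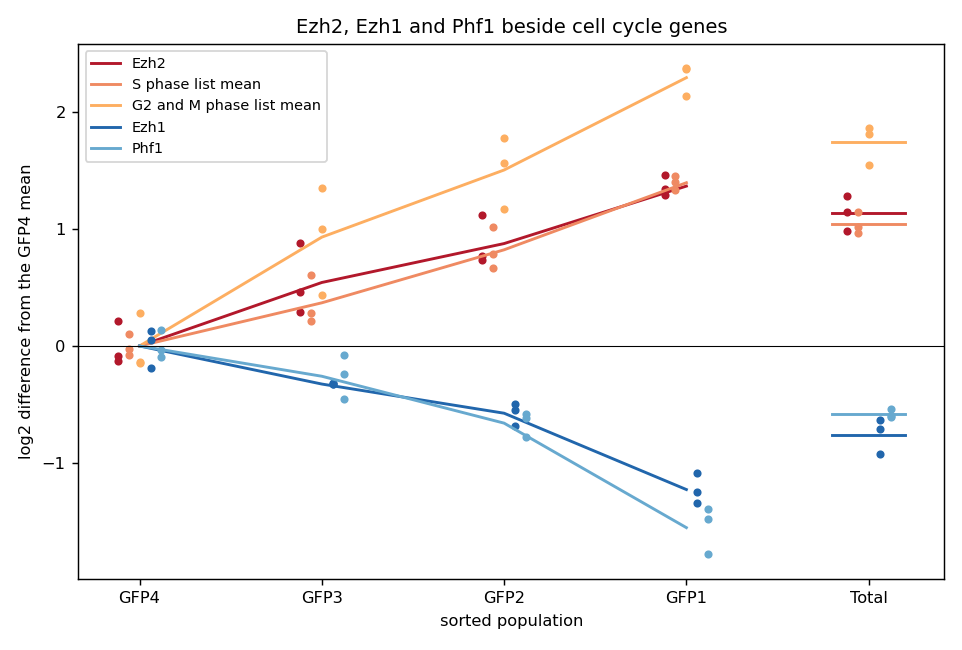
Log2 difference from the GFP4 mean (y axis) of Ezh2, Ezh1, Phf1 and the means of the S phase and G2 and M phase lists, by sorted population; points are libraries, the lines join the bin means, and Total stands apart with its own mean bars. Ezh2 (1.37 in GFP1) runs with the S phase mean, the G2 and M phase mean lies above both, and Ezh1 (−1.23 in GFP1) and Phf1 (−1.55 in GFP1) run below 0.

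Likeness over the 15 libraries was measured by Pearson's r of log2 values among 9819 genes. The 5 genes most like Ezh2 were the repair helicase Rad54l (0.992), the topoisomerase Top2a (0.990), the water channel Aqp1 (0.988), the condensin subunit Ncapg (0.986) and the kinesin Kif4 (0.986). The 5 most like Ezh1 were Gprasp2, a sorting protein of receptors (0.981), the stress protein Sesn1 (0.981), the transporter Slc22a18 (0.980) and the interferon-inducible GTPases Irgm2 (0.977) and Gbp9 (0.976). Ezh1 and Ezh2 had r = −0.849 with each other. These values describe 15 libraries of 5 groups that share their group differences, and no p is given.

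Some subunits share sequence with other genes. The library kits named in the labels do not mark strand. Reads that lie wholly in a stretch where genes overlap on opposite strands therefore cannot be told apart. Such overlaps of exons were found for Ezh2 (Gm26625), Eed (E230029C05Rik), Suz12 (Gm26563), Rbbp4 (Gm26722 and Sync), Rbbp7 (Txlng) and Mtf2 (Tmed5). Ezh1 and Ezh2 had 0 stretches of 31 bases in common, as did Rbbp4 and Rbbp7, so the paralogs were told apart at that length. Of the stretches of 31 bases in the transcripts of Rbbp4, 22.0% also occur in other genes, mainly Gm26722 and Sync, and of those of Rbbp7 16.5%, mainly in Gm6382 and Txlng. The share was 7.61% for Eed, 6.42% for Mtf2, 3.68% for Suz12, 2.18% for Ezh2, 1.09% for Aebp2, 0.507% for Ezh1, 0.24% for Jarid2 and 0 for Phf19. Rbbp4 and Rbbp7 thus shared the largest parts of their sequence with other genes.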

How the data were processed

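RNA of 15 sorted HSC libraries was amplified with SMART-Seq v4 and tagmented with Nextera XT, per the labels' protocols. The submitters' processing notes list kallisto 0.43.0 and the build GRCm38. The authors deposited log2 values, 1 row per gene symbol; the sources used here do not give the depth, the unit before the logarithm or how transcripts were summed. From the values, the columns were quantile normalized, which removes differences in total RNA, and the lowest value was 0.1375 in 13 columns.

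The deposited log2 values entered limma 3.58.1 (R 4.3.3) with no further pseudocount: 1 mean per group over all libraries, intensity trend, robust moderation, no covariate. A gene was tested where 3 or more libraries had a linear value (2 to the power of the log2 value, minus 1) of 1 or more, which left 27994. Benjamini-Hochberg adjustment ran over these within each comparison, with calls at 0.05. Differences are first group minus second. The model was tested on simulated data. Coordinates and transcripts are from GENCODE on GRCm38, and promoter windows are from RefSeq. Summed linear values gave the shares in ppm and percent, which follow the ranks of the genes in a shared distribution.

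The members, gene lists and tests were chosen with earlier results of these data known. The members are named in full, as are the genes of the 2 short lists (other PRC2 partners and demethylases) that the data held. Of the longer lists the 2 genes with the smallest p each way are named. For Ezh1 and Ezh2 the 5 genes with the highest Pearson's r at 10 ppm or more are named, predicted and immunoglobulin genes left out. Alternatives were quantile normalization without immunoglobulin genes, median-of-ratios rescaling, a pseudocount of 0.1, no filter or one at 10 ppm, array weights, a replicate block, the compared groups alone, no trend and robust moderation, and each library left out. A term for low Ddx3y and leaving out the 5 libraries low in it were added after that split was seen.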

Additional observations from a re-analysis of the deposited data

How the results depend on the processing

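Ezh1 and Ezh2 kept their direction and call in GFP1 against GFP4 in all 26 other settings, at −1.32 to −1.16 and at 1.30 to 1.47. Without trend and robust moderation the number of subunits called there was 3 in place of 7, and 4 for the trend. Of all genes 16% and 16.8% were called (main 19.5% and 20.1%). Without the libraries low in Ddx3y the number was 3 in both (14% and 14.2% of all genes). With single libraries left out it was 4 to 7 in both. In GFP3 against GFP4 it was 1 in place of 0 with a term for low Ddx3y. In GFP1 against GFP2 it was 3 in place of 2 with median-of-ratios rescaling (2 higher, 1 lower), 1 without the filter, 1 without trend and robust moderation, and 1 to 2 with single libraries left out. In GFP3 against Total it was 1 in place of 2 with array weights, 0 with the compared groups alone, 0 without trend and robust moderation, 1 without the libraries low in Ddx3y and 0 to 2 with single libraries left out. In GFP1 against Total it was 0 in place of 1 with the compared groups alone, 0 without trend and robust moderation, 0 without the libraries low in Ddx3y and 0 to 1 with single libraries left out. The numbers for GFP2 against GFP4 and for GFP4 against Total were 2 to 3 with single libraries left out. Both were 2 in place of 3 without trend and robust moderation and without the libraries low in Ddx3y. GFP2 against GFP4 also gave 2 with median-of-ratios rescaling, and GFP4 against Total gave 2 with the compared groups alone. The cause of these changes was not tested; leaving libraries out leaves fewer samples.

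The sign of Rbbp7, GFP1 against GFP4, main value −0.02, turned to 0.0302 with quantile normalization without immunoglobulin genes, to 0.0289 with median-of-ratios rescaling, to 0.0181 without the libraries low in Ddx3y and ranged from −0.0761 to 0.0323 with single libraries left out. For Rbbp7, linear trend over GFP4, GFP3, GFP2, GFP1, it turned to −0.0047 with array weights and ranged from −0.0145 to 0.018 with single libraries left out. Kdm6a, GFP1 against GFP4, ranged from −0.46 to 0.0311 with single libraries left out, positive without GFP4 replicate II. Of the values of single genes under other settings 1159 kept direction and call, 102 lost the call, 1 gained it and 9 changed sign. The mean balances moved by less than 1 SD with quantile normalization without immunoglobulin genes and with the other pseudocount; rescaling a library cannot move them.

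The replicate numbers were checked as a pairing: deviations of same-numbered libraries correlated above 0.1 in 21 of 30 pairs of libraries (−0.41 to 0.59, median 0.19; different numbers −0.11), and 11 of 15 libraries correlated best with their own number. The number also marks age and time on doxycycline. Of the 18 pairs without GFP4, 17 were above 0.1, and of the 12 with GFP4, 4 were. Since not every pair was above 0.1, the numbers were not taken to pair the samples, and a block rests on GFP4 numbers that do not follow those of the other groups. With a replicate block the number of subunits called was 7 in GFP1 against GFP4, 7 for the trend, 2 in GFP1 against GFP2 and 3 in GFP2 against GFP4, as without it. Depth is unknown, so no counting error can be given.

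Over all genes tested, the number called in GFP3 against GFP4 was 16, and it was 48 with a replicate block, 151 with a term for low Ddx3y and 1 without trend and robust moderation. In GFP2 against GFP3 it was 0, against 5 with the block and 38 with the term. In GFP2 against GFP4 it was 1219, against 529 without trend and robust moderation and 465 without the libraries low in Ddx3y; in GFP1 against GFP2 it was 2007, against 1094 and 1197 in those settings. With the compared groups alone it was 1660 in place of 2799 in GFP4 against Total, 144 in place of 599 in GFP3 against Total, 50 in place of 92 in GFP2 against Total and 89 in place of 484 in GFP1 against Total.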
